A study of Saccharomyces cerevisiae with 4 samples.

Results

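Yeast cells store surplus sterols and fatty acids as neutral lipids, in droplets that bud from the endoplasmic reticulum. Sterols are esterified with acyl-CoA by the sterol acyltransferases Are1p and Are2p, and diacylglycerol is turned into triacylglycerol by Lro1p, which takes the acyl chain from a phospholipid, and by Dga1p, which takes it from acyl-CoA. The steryl ester hydrolases Tgl1p, Yeh1p and Yeh2p release the stored sterol again. The expression of these 7 genes was examined in wine yeast fermenting a lipid-poor medium, with and without the protein kinase gene *SCH9*. Members were the probes whose symbol in the array annotation, or a synonym of it, is one of the 7 names. *ARE1*, *ARE2*, *LRO1*, *DGA1* and *TGL1* had 1 probe each, so 5 of the 7 genes were measured among 6226 features. No probe carries the symbol *YEH1* or *YEH2* in the annotation used here, and both genes are not analysed here.

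The wild type (WT) was 59A, a haploid strain derived from a meiotic spore of the Champagne wine yeast EC1118. The mutant (sch9) was 59A in which a KanMX resistance cassette replaced the *SCH9* reading frame, and no source used here gives the number of mutant clones. Both strains fermented without oxygen at 24°C in synthetic must with 230 g/L of glucose and fructose, 142 mg/L of assimilable nitrogen and 5% of the lipid factors, a mixture of ergosterol and oleic acid, as the labels give for all 4 samples. The methods also name a medium with less nitrogen for the array experiment. By the same methods, RNA was taken from both strains at the same amount of CO2 produced. Each strain has 2 samples, called biological replicates 1 and 2, and each was hybridised to 1 one-colour array, all 4 on slide 1.

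The deposited values are log2 intensities after quantile normalisation between the arrays, and the array medians lay between 8.52 and 8.53. *SCH9* had 8.72 and 8.67 in the WT and 5.81 and 5.67 in the mutant, a log FC (log2 of mutant over WT) of -2.96 (standard error, SE, 0.08, limma adjusted p = 1.3e-04). Both mutant values were below both WT values and near the floor of their arrays, whose lowest values were 5.47 and 5.52, with 6.02% and 1.38% of the features below *SCH9*. The measured difference is therefore a bound, and a larger drop would not be seen. In these bulk samples fewer cells that express a gene and less RNA per cell cannot be told apart. As a check of the cultures, all 7 genes specific to mating type a were higher in the mutant at a limma adjusted p under 0.05, against 14.6% of all features. Their median log FC was 2.03. Of the 2 measured genes specific to alpha cells, *SAG1*, the alpha-agglutinin, rose by 2.38. The other, *STE3*, the a-factor receptor, had values from 5.69 to 5.74 on the 4 arrays. Only 2.36% to 4.21% of the features were below *STE3*, so it lay near the floor and its flat values do not show a stable level. The part of these mating genes in the results on lipid genes was not tested.

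A gene was counted as changed at an adjusted p under 0.05 in limma over all features. Of the 5 storage genes 1 was lower in the mutant, 1 was higher and 3 did not pass the test. This share has to be read against 12.1% of all features lower, 14.6% higher and 26.7% called in either direction. With the added criterion of a log FC beyond 1 in size, which the study used, *ARE2* alone of the 5 passed, and 1.64% of all features were lower by this rule and 2.18% higher. At an unadjusted p under 0.05 the count of storage genes was again 1 lower and 1 higher, beside 42.1% of all features in either direction. The median log FC of the 5 genes was -0.06, against -0.01 for all features. With 5 genes these shares describe the genes and no more.

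**Figure D1:**
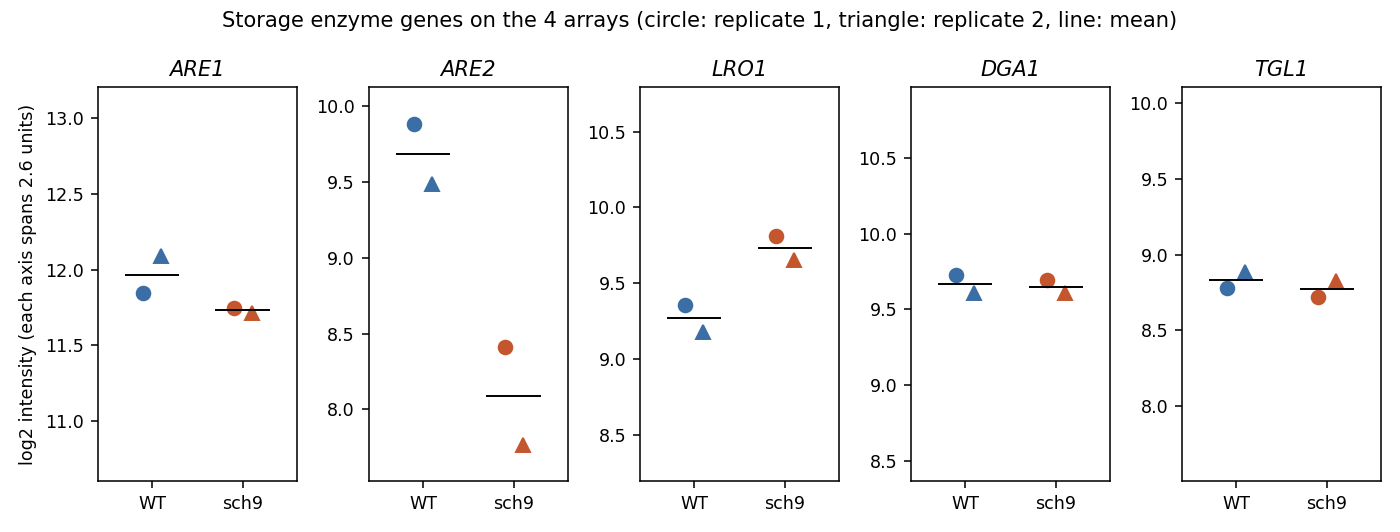
Log2 intensity of the 5 measured storage genes (vertical axis, the same span of 2.6 units in every panel) in the WT (blue) and sch9 (orange) arrays, with circles for replicate 1, triangles for replicate 2 and lines for the means. The strains are apart by the widest margin in *ARE2*, at 9.88 and 9.48 against 8.41 and 7.77, and overlap in *DGA1* and *TGL1*.

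The sterol acyltransferase gene *ARE2* was 3.02-fold lower in the mutant. Are2p is the isozyme that makes most of the steryl esters in cells grown with oxygen, whereas these cultures fermented without it. Steryl esters were not measured here. The log2 intensity of *ARE2* was 9.88 in replicate 1 and 9.48 in replicate 2 of the WT, and 8.41 and 7.77 in those of the mutant. The lower WT array was thus above both mutant arrays, a separation that 35.8% of all features showed in this direction. The log FC was -1.59 (SE 0.24, 95% confidence interval -2.21 to -0.98, limma adjusted p = 0.0118), and only 0.434% of the features had a lower one. With each array left out in turn the log FC of *ARE2* ran from -1.92, without replicate 1 of the mutant, to -1.27, without replicate 2 of the mutant. *ARE2* passed the test in all 4 cases, with adjusted p of 0.0101 and 0.0343 in these 2 cases.

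Replicates of one strain also differed in *ARE2*. Replicate 1 exceeded replicate 2 by 0.40 on the log2 scale in the WT and by 0.65 in the mutant. The latter difference was larger in size than that of 99.5% of all features between the mutant arrays, and the former larger than that of 91.8% between the WT arrays. The spread between replicates of *ARE2* was therefore wide for these arrays, though smaller than the difference between the strains. The replicates with the same number lay at slide positions 6 (WT) and 4 (mutant), and 1 and 7, and the part of position in this spread was not tested.

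The other sterol acyltransferase gene, *ARE1*, did not pass the test. It had 11.84 and 12.09 in the WT and 11.74 and 11.72 in the mutant. Both mutant arrays were below both WT arrays, by a small margin, and 69.5% of all features had arrays of the strains apart in one direction or the other. The log FC was -0.24 (SE 0.10, 95% confidence interval -0.50 to 0.02, limma adjusted p = 0.146). The log FC depended on the WT arrays, which differed by 0.25, being -0.36 without replicate 1 of the WT and -0.11 without replicate 2. Both fits took the spread between replicates from the mutant pair, which differed by 0.03, and had an SE of 0.08. *ARE1* passed without replicate 1 of the WT, a call that rests on this narrower spread as well as on the level.

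Whether both isozyme genes moved by the same amount was examined within each array. A log2 shift shared by all probes of an array cancels in the difference *ARE2* minus *ARE1*, though an array effect that varies with intensity does not. This log2 difference was -1.96 and -2.60 in the WT and -3.33 and -3.95 in the mutant. It was lower on both mutant arrays than on both WT arrays, the means of the strains differing by -1.36 log2 units. The exact two-sided permutation test gave p = 0.333 (0.333 after adjustment over the 2 pairs compared), which is the smallest p this test can give with 2 arrays against 2, so it cannot fall below 0.05 here. The size of the difference, not the sign of the levels, is what can be read, because intensities of different probes are not on 1 scale.

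Of the triacylglycerol synthases, *LRO1* was higher in the mutant by a modest amount and *DGA1* showed no detectable change. *LRO1*, the phospholipid:diacylglycerol acyltransferase, had 9.36 and 9.18 in the WT and 9.81 and 9.65 in the mutant, both mutant values being above both WT values as in 33.7% of all features. The log FC was 0.46, a 1.38-fold rise (SE 0.10, 95% confidence interval 0.21 to 0.72, limma adjusted p = 0.0286). Without replicate 1 of the mutant the log FC of *LRO1* was 0.38, and without replicate 2 of the mutant it was 0.54. *LRO1* lost its call in both fits, whose SE was 0.15. Such fits take the spread between replicates from the WT pair alone. Over all features, the replicate differences had a standard deviation of 0.236 in the WT and 0.135 in the mutant. A call lost without a mutant array, here and for the genes below, thus also depends on this wider spread and not on the gene alone. In the same way, a call gained without a WT array also depends on the spread of the mutant pair, which was narrower over all features. The direction was the same with any array left out.

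*DGA1*, the acyl-CoA:diacylglycerol acyltransferase, had 9.73 and 9.61 in the WT and 9.69 and 9.61 in the mutant. The arrays of the strains overlapped. Its log FC was -0.02 (SE 0.08, limma adjusted p = 0.902), and the 95% confidence interval from -0.23 to 0.19 leaves out changes of the size seen in *ARE2* and the 0.46 of *LRO1*. Within arrays, *DGA1* minus *LRO1* was 0.37 and 0.43 in the WT and -0.12 and -0.04 in the mutant. The strains did not overlap, and the mean differed by -0.48 (exact two-sided permutation test, p = 0.333, adjusted over the 2 pairs 0.333), again the smallest p this permutation test can give.

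*TGL1* was the only steryl ester hydrolase gene measured. Its product sits on lipid droplets and cleaves steryl esters. It had 8.78 and 8.89 in the WT and 8.72 and 8.83 in the mutant, so that the arrays of the strains overlapped. The log FC was -0.06 (SE 0.08, 95% confidence interval -0.27 to 0.15, limma adjusted p = 0.645).

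**Figure D2:**
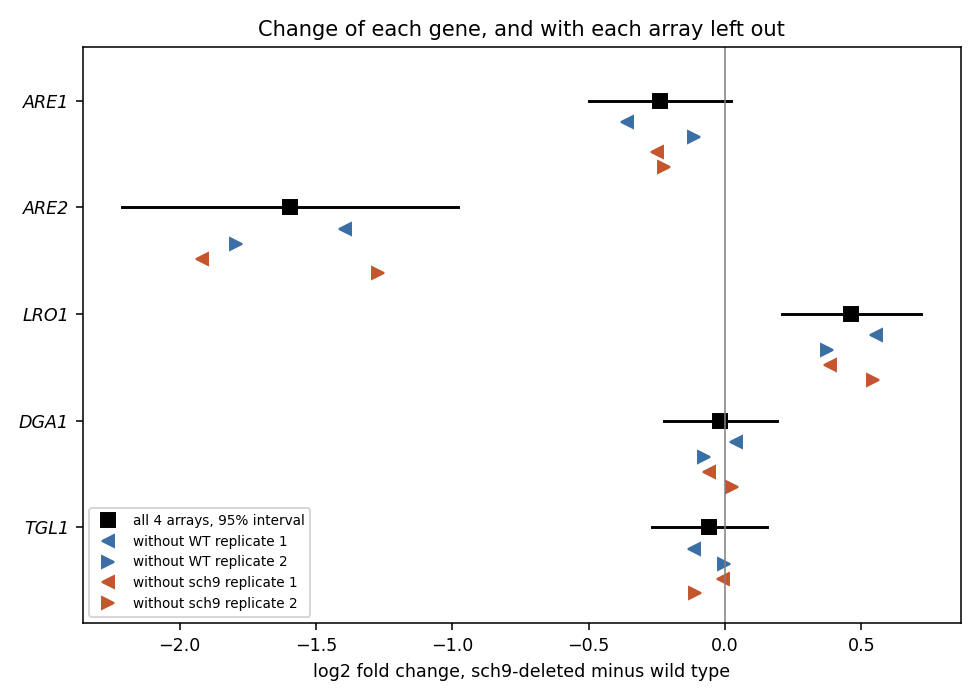
Log2 fold change of the mutant over the WT for the 5 storage genes (horizontal axis), with squares and bars for the fit to all 4 arrays and its 95% confidence interval, and triangles for the fits with 1 array left out. *ARE2* stays between -1.92 and -1.27 and *LRO1* between 0.37 and 0.55, while *DGA1* lies on both sides of 0.

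The likeness of expression profiles was measured as the Euclidean distance over the 4 arrays, after the mean of each gene had been taken off, among the features with a symbol. Nearest to *ARE2* were 3 genes of the ergosterol pathway, *ERG10*, the acetoacetyl-CoA thiolase, at a distance of 0.14, *IDI1*, the isopentenyl diphosphate isomerase, at 0.18, and *ERG1*, the squalene epoxidase, at 0.19. *ERG10* had 13.58 and 12.98 in the WT and 11.97 and 11.35 in the mutant. These genes had the same order of the arrays as *ARE2*, with replicate 1 above replicate 2 in each strain. Their log FC were -1.62, -1.48 and -1.42. Nearest to *LRO1* were *RNP1*, at a distance of 0.09, *ESC1*, at 0.09, and *OPY2*, at 0.10, with log FC of 0.44, 0.51 and 0.40. With 4 arrays the distance rests mainly on the difference between the strains and on the spread between replicates, and a large number of features are available to match a small change such as that of *LRO1*. *ERG10*, *IDI1* and *ERG1* did not pass without replicate 2 of the mutant (log FC -1.31, -1.14 and -1.12), and *RNP1*, *ESC1* and *OPY2* lost their calls when either mutant array was left out.

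**Figure D3:**
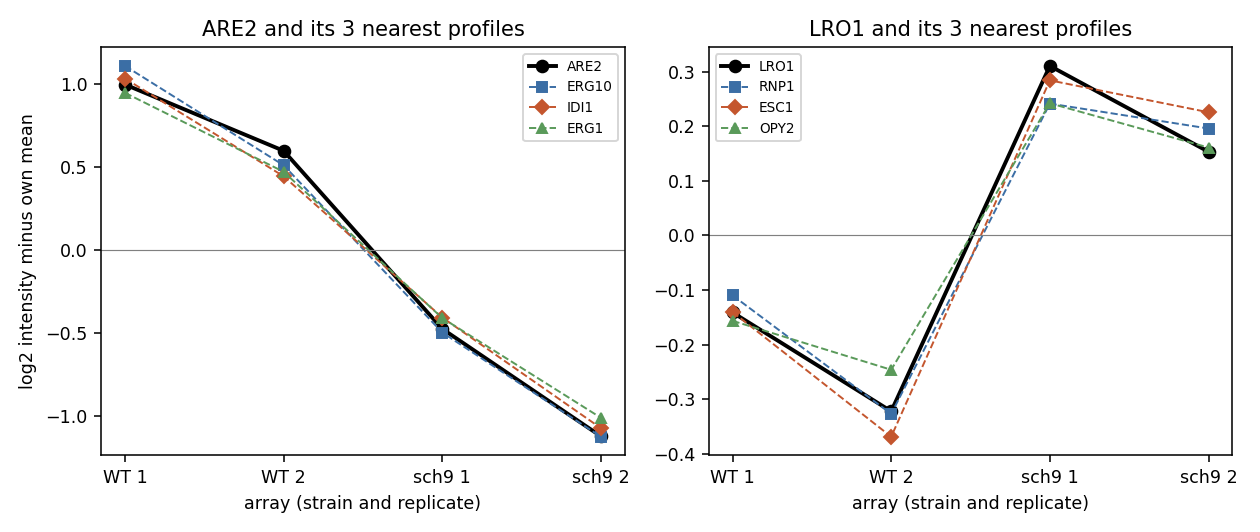
Log2 intensity minus the own mean of each gene (vertical axis) on the 4 arrays (horizontal axis) for *ARE2* and *LRO1* (black) and for the 3 genes with the smallest distance to each (colours, dashed). The scales differ between the panels. *ARE2*, *ERG10*, *IDI1* and *ERG1* share the drop from WT to mutant and the higher value of replicate 1 in both strains.

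Genes that make or use diacylglycerol and phosphatidate, from which triacylglycerol is built, went both ways. Of 12 measured genes 3 were called lower and 4 higher, 5 had no call, and their median log FC was 0.23. Calls in either direction thus covered 58.3% of this group, against 26.7% of all features. The lower genes included *DGK1* (named *HSD1* in the annotation), a kinase that uses diacylglycerol, with a log FC of -0.26 (limma adjusted p = 0.0484). *DPP1*, a vacuolar diacylglycerol pyrophosphate phosphatase, had 9.76 and 9.74 in the WT and 9.02 and 8.89 in the mutant, and was lower with a log FC of -0.80 (SE 0.08, limma adjusted p = 0.00400). *PAH1* (named *SMP2* in the annotation), the phosphatidate phosphatase that makes diacylglycerol for storage, had 10.92 and 10.88 in the WT and 11.30 and 11.32 in the mutant, and was higher with a log FC of 0.41 (SE 0.07, limma adjusted p = 0.0163). *APP1*, a phosphatidate phosphatase of actin patches, was higher by 0.54, and *SLC1*, which acylates lysophosphatidate, by 0.41. *NEM1*, a subunit of the phosphatase that activates Pah1p, had a log FC of 0.35 (adjusted p = 0.113). *DPP1* did not pass without replicate 2 of the mutant (adjusted p = 0.0531), and *PAH1*, *APP1* and *SLC1* lost their calls when either mutant array was left out. *NEM1* passed without replicate 1 of the WT. Without replicate 1 of the mutant 1 gene of this group was lower and 0 were higher, and without replicate 2 of the mutant 0 passed in either direction.

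Genes that make or carry acyl-CoA, the acyl donor of Are1p, Are2p and Dga1p, had a share of calls near that of all features. Of 10 measured genes 2 were higher (20.0%, against 14.6% of all features), 0 were lower (also 0 at an unadjusted p under 0.05) and 8 had no call, with a median log FC of 0.01. *FAA2*, an acyl-CoA synthetase of medium chains, had 7.85 and 7.85 in the WT and 8.57 and 8.68 in the mutant, a log FC of 0.78 (SE 0.08, limma adjusted p = 0.00394). *FAA3*, a further acyl-CoA synthetase, rose by 0.49. *FAA1*, one of the main synthetases for imported fatty acids, had 8.97 and 7.87 in the WT and 8.21 and 7.97 in the mutant, with both mutant values inside the range of the WT. Its log FC was -0.34 (SE 0.35, limma adjusted p = 0.522) with all arrays, and turned from -0.89 without replicate 2 of the WT, where it passed, to 0.22 without replicate 1 of the WT. *FAA2* did not pass without replicate 2 of the mutant (adjusted p = 0.0549) and *FAA3* lost its call when either mutant array was left out, so that 1 gene was higher without replicate 1 of the mutant and 0 without replicate 2. With either WT array left out, 1 gene of this group was lower. Leaving out the dimmest share (0.25) of the features removed *FAA3* from the test and left 1 higher gene.

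Of the proteins of the droplet surface, *PDR16*, a phosphatidylinositol transfer protein found on droplets, fell most. It had 13.14 and 12.60 in the WT and 10.95 and 9.75 in the mutant. The log FC was -2.52 (SE 0.41, limma adjusted p = 0.0138), and it passed with any array left out, at -1.92 to -3.12. Like *ARE2*, *PDR16* was higher in replicate 1 than in replicate 2 of both strains. *SCS3*, a gene of droplet biogenesis, had a log FC of 0.19 without passing, and these 2 were the only genes measured of 13 for droplet coat and biogenesis. Of 7 genes in the group of triacylglycerol and monoacylglycerol lipases 3 were measured and 0 passed (at an unadjusted p under 0.05 also 0), *AYR1*, an acyl-dihydroxyacetone phosphate reductase with lipase activity, having the largest log FC in size with 0.18. *AYR1* passed without replicate 2 of the WT, at 0.36.

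The genes of sterol enzymes from squalene to ergosterol were mostly lower. So were *ERG10* and *IDI1* of the same pathway, and the fall was not limited to enzymes known from droplets. The squalene epoxidase gene *ERG1* had 12.15 and 11.67 in the WT and 10.79 and 10.19 in the mutant, the sterol methyltransferase gene *ERG6* had a log FC of -1.25 and the lanosterol synthase gene *ERG7* of -0.87, and the products of all 3 are known from droplets. The group of 12 enzymes from squalene to ergosterol had 11 lower genes and 0 higher genes (also 0 at an unadjusted p under 0.05). The lower genes made up 91.7% of the group, against 12.1% of all features. This group was chosen with earlier results of these data known, so the share describes its genes and is not a test. *ERG24*, a sterol reductase, was the 1 without a call (log FC -0.42), and the median log FC of the group was -0.99. Beside *ERG1* and *ERG6*, the lanosterol demethylase gene *ERG11*, at -1.30, and the sterol desaturase gene *ERG5*, at -1.22, had the largest changes. In all 12 of them replicate 1 was above replicate 2 in both strains, as in *ARE2*, against 24.9% of all features. Without replicate 2 of the mutant 2 of the 12 were lower, and *ERG1*, *ERG6*, *ERG7*, *ERG11* and *ERG5* did not pass, whereas *ERG24* passed without replicate 2 of the WT.

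The genes that take up, move and modify free sterols had calls in 17.6% of their number, against 26.7% of all features. Of 17 measured genes 1 was lower and 2 were higher, 14 had no call, and the median log FC was -0.02. *ATF2*, an alcohol acetyltransferase that also acetylates sterols, had 9.06 and 9.002 in the WT and 8.06 and 7.81 in the mutant, a log FC of -1.09 (SE 0.11, limma adjusted p = 0.00363), and it passed with any array left out. *PRY2*, a secreted protein that binds sterols and sterol acetates, had 6.36 and 6.58 in the WT and 9.97 and 10.04 in the mutant, a log FC of 3.54. Its relative *PRY3* had a log FC of 0.29 without passing, but passed without replicate 2 of the WT, where 3 genes were higher and 2 lower. *OSH2*, an oxysterol-binding protein homologue, was higher with 0.58 and lost its call when either mutant array was left out, which left 1 higher gene.

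Among 16 regulators of sterol, lipid and stress genes, 3 were lower and 5 higher. Of all features 12.1% were lower, 14.6% higher and 26.7% called in either direction. The other 8 regulators had no call, and the median log FC of the 16 regulators was 0.16. *MOT3* and *ROX1*, both repressors of hypoxic genes, had the largest changes. *MOT3* had 11.24 and 10.47 in the WT and 9.39 and 8.84 in the mutant, a log FC of -1.74 (SE 0.30, limma adjusted p = 0.0156), and *ROX1* had 10.97 and 10.25 in the WT and 9.47 and 8.72 in the mutant, a log FC of -1.51 (SE 0.33, limma adjusted p = 0.0275). In both genes replicate 1 was above replicate 2 in each strain. *SUT2*, a transcription factor related to the sterol uptake regulator Sut1p, was lower with -0.78, whereas *SUT1* itself was higher with 0.49 (limma adjusted p = 0.0138). The stress factor gene *MSN4* was higher with 0.73. *UPC2*, which activates sterol genes, had a log FC of 0.43 (adjusted p = 0.0874) and passed without replicate 1 of the WT. *MOT3*, *ROX1*, *SUT2* and *MSN4* did not pass without replicate 2 of the mutant (log FC -1.47, -1.14, -0.71 and 0.61), where 0 regulators passed in either direction. Without replicate 1 of the mutant 1 was higher, and without the dimmest share (0.25) of the features 3 were.

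**Figure D4:**
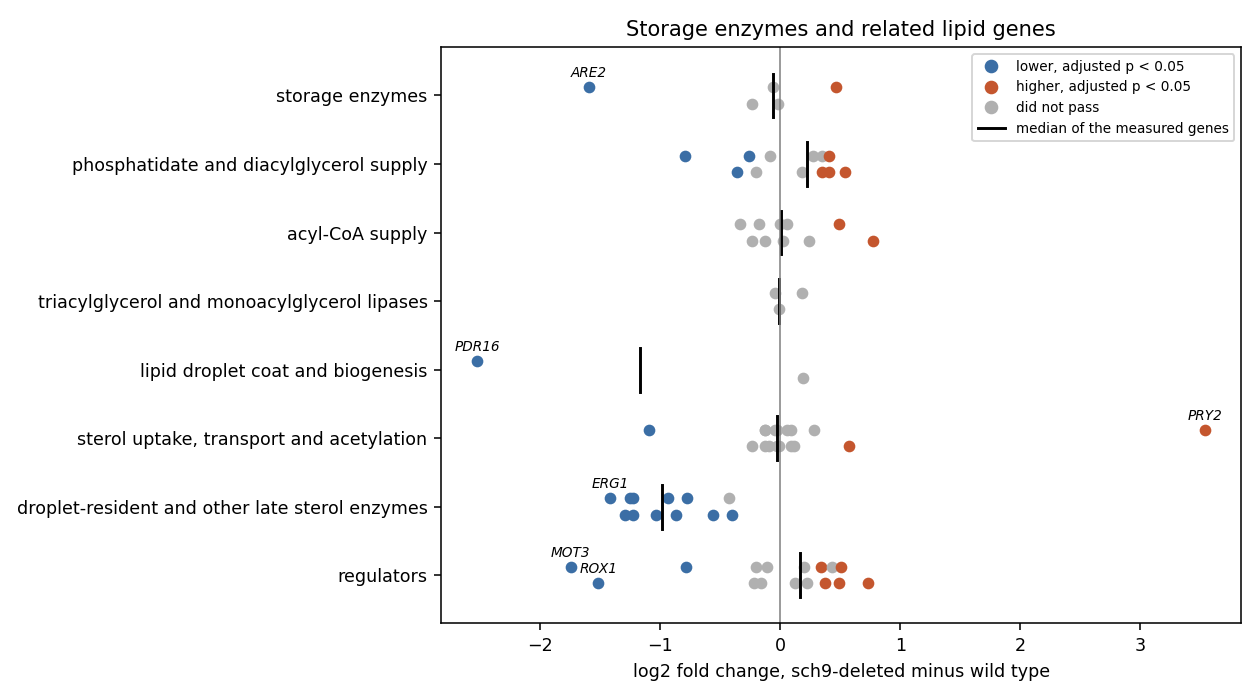
Log2 fold change of the mutant over the WT (horizontal axis) of the 5 storage genes and of 7 groups of related lipid genes, 1 point a gene, blue for lower and orange for higher at an adjusted p under 0.05 and grey for genes that did not pass, with a bar at the median. *ARE2* lies apart from the other storage genes, at -1.59, below the lowest of the late sterol enzymes, *ERG1* at -1.42, and above the lowest of the regulators, *MOT3* at -1.74.

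*LRO1* and *ARE2* lie on the same chromosome, with 10 protein-coding genes between them in the RefSeq annotation. Of these 7 were measured, of which 2 were lower and 5 had no call, with log FC from -1.05 to 0.24. Of all features 12.1% were lower and 26.7% were called in either direction, and with 7 genes no more is read from this count. The 2 lower genes between *LRO1* and *ARE2* were *URK1*, the uridine kinase, with a log FC of -1.05 (SE 0.07, limma adjusted p = 0.00130), and *PHO91*, a vacuolar phosphate transporter, with -0.59. Next to *LRO1*, *ATG3*, an enzyme of autophagy, had a log FC of 0.02. No direct neighbour of *ARE2* was measured under its symbol. Next to *ARE1*, *BUD23*, a methyltransferase of ribosomal RNA, was lower by -0.33 (adjusted p = 0.0320). The neighbours of *DGA1* and *TGL1* that were measured, *ESA1*, *SDH3* and *CTK1*, had log FC of 0.09, 0.05 and -0.05.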

How the data were processed

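Gene expression was measured in 59A and its sch9-deleted mutant, with 2 samples of each. RNA was labelled with Cy3 and hybridised to Agilent yeast arrays with 1 colour. The authors extracted the spots with GenePix and normalised them by quantiles between arrays with limma in R (2.14.2 per the labels). They deposited 1 log2 intensity per probe. The scale was checked on the values, and a method of background correction was not given in the sources used here. The values were used without renormalisation.

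Of 6227 probes 4061 carry 1 gene symbol, 0 carry several and 2166 are unnamed here. Probes of 1 gene were averaged, leaving 6226 features. Names were matched through the symbols, locus tags and synonyms of RefSeq assembly R64, which served for names and neighbours only. Sequences of the members were not used here. The contrast was fitted with lmFit and eBayes of limma 3.58.1 in R 4.3.3 with Benjamini-Hochberg adjustment over all features. The fit was also tried on simulated data, with independent noise of the same spread on every array. This trial does not cover the unequal and correlated replicate differences of the real arrays. Permutation tests were run in scipy 1.17.1 and plots drawn with matplotlib 3.10.9.

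The members and lists were chosen with earlier results of these data known. Of each of 7 lists up to 4 genes that passed and the largest that did not are named, with the neighbours of members and the 3 nearest profiles of members that passed. *ERG7* is named as a droplet protein, *SUT1* beside its relative *SUT2*, and *DGK1* as a kinase of diacylglycerol. Of 5 pairs planned 2 were compared, since *YEH1* and *YEH2* were not measured. Alternatives were quantile normalisation again, median centring, 75th percentile scaling, leaving out the dimmest 0.25 of the features, an intensity trend or robust hyperparameters in eBayes, the brightest probe, the replicate block, each array left out, unadjusted p and the fold criterion. The number of arrays limits the precision. Nothing in the labels says more of the replicates than that they are biological.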

Additional observations from a re-analysis of the deposited data

How the results depend on the processing

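The log FC of *ARE2* and *TGL1* kept their direction and their side of the threshold under all 14 alternatives, and both within-array differences kept their sign under the 8 alternatives run for them. Scaling moved the log FC of the 5 storage genes by at most 0.018. *LRO1* missed the fold criterion at 0.46 and did not pass without either mutant array, where it had 0.38 and 0.54, within a range over single arrays left out of 0.37 to 0.55. *ARE1* ranged from -0.36, which passed, to -0.11, *ARE2* from -1.92 to -1.27, and *TGL1* from -0.11 to -0.0036 and *DGA1* from -0.0757 to 0.0405, its sign turning without replicate 1 of the WT and without replicate 2 of the mutant (0.0244). Of the storage genes 0 were higher under the fold criterion, and with 1 array left out 1 to 2 were lower and 0 to 1 higher. Over all features 753 were lower and 912 higher. With the fold criterion these counts were 102 and 136, and at an unadjusted p 1307 features were lower. With 1 array left out they ran from 58 to 1268 lower and from 179 to 1313 higher. The genes of the 7 lists together had 19 lower and 13 higher, 10 and 1 with the fold criterion, 20 higher at an unadjusted p, and from 4 to 23 lower and from 1 to 17 higher with 1 array left out. With the replicate block 1311 features were lower, and among the storage genes the calls were the same, *ARE2* having an adjusted p of 5.0e-06 and *LRO1* of 0.00202. Of the list genes named without a call, *ERG24* (adjusted p = 0.00418, so that 12 of 12 late sterol enzymes were lower), *UPC2* (0.0234), *PRY3* (0.0246) and *NEM1* (0.0492) passed with the block. Deviations of same-numbered arrays correlated at r = 0.531 across features, which are not independent replicates, and with 2 numbers the pairing is not known. A fit without 1 array takes the lone array of its strain to vary like the others.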
